A study of Mus musculus with 6 samples.

Results

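Retinal ganglion cell genes were taken as all probe sets that the platform annotation pairs with 9 symbols: the transcription factors Pou4f1 and Pou4f2, the neurofilament genes Nefl, Nefm and Nefh, and Sncg, Gap43, Thy1 and Rbpms. The annotation used here paired 10 of 22626 non-control probe sets with 7 of these genes, out of 12393 genes named by a single symbol, and 4 of the 10 were those of Rbpms. It listed no probe set for the other 2 genes, Pou4f1 and Pou4f2, which were not analysed here. Total RNA from retinae of mice at postnatal day 7 was hybridised to 6 Affymetrix arrays. The 3 knockout arrays came from mice labelled C57BL/6 with a knockout of Rs1h (Rs1h-/Y), the X-linked gene of retinoschisin, a protein secreted in the retina that holds retinal cells together. The 3 wildtype arrays came from mice labelled C57BL/6 wildtype. The labels do not say whether an array held the RNA of 1 animal or of several, so a p-value here sets the group difference against the variation among these 6 samples, part of which may be technical.

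Ganglion cells are the output neurons of the retina, and their axons form the optic nerve. Pou4f1 and Pou4f2 encode POU-domain factors of ganglion cell fate and axon growth. Neurofilament light, medium and heavy chains assemble into the fibres that fill large axons, and the heavy chain is known to accumulate as axons mature. Gamma-synuclein (Sncg), the growth cone protein Gap43, the surface glycoprotein Thy1 and the RNA-binding protein Rbpms are used as ganglion cell or axon markers in the rodent retina. In RNA of whole retinae, fewer cells of a type and less RNA per cell cannot be told apart.

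The deposited MAS5 signals had trimmed means of 263 to 304 on the knockout arrays and 171 to 312 on the wildtype arrays, and were scaled to a common trimmed mean. Knockout array 1 stood apart: its correlation with the other 5 arrays was at most 0.936, while every other array reached 0.972 or more with at least 1 array. Wildtype array 2 also differed from the rest, with a scaled 18S ribosomal RNA control signal (5' probe set) of 2573 and the lowest trimmed mean, and knockout array 1 had 609 for that control, against 38.8 to 54.9 on the other 4 arrays. The 3' to 5' signal ratio of the Actb control probe sets, a measure of RNA integrity and labelling, was 2.17, 1.69 and 1.90 on the knockout arrays and 1.64, 1.44 and 1.59 on the wildtype arrays. An exact permutation test, two-sided, gave p = 0.1 for it, which 3 against 3 arrays cannot go below. The Gapdh ratio was 1.18, 0.88 and 1.16 on the knockout arrays and 0.98, 0.82 and 0.88 on the wildtype arrays (p = 0.2 in the same exact test). The part of these ratios in the results below was not tested. The targeted gene is not reported here, so the knockout labels were not checked against it.

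None of the 10 probe sets passed the test of knockout against wildtype retinae. All 10 lay above the filter on low values, a mean scaled signal of 62.4. Of the 13575 probe sets tested in limma, 2, or 0.0147%, had a Benjamini-Hochberg adjusted p under 0.05, and 0 of them were ganglion cell probe sets. The adjusted p was 0.999 for each of the 10. At an unadjusted limma p under 0.05 there was 1 ganglion cell probe set, that of Nefh, beside 3.82% of all tested probe sets. An ordinary equal-variance statistic per probe set gave 2, those of Nefl and Nefh, beside 3.62% of all, and median scaling gave 3, those of Nefl, Nefh and Thy1, beside 4.39%. Median scaling also put the median log2 fold change of all tested probe sets at 0.088. Log2 fold changes, knockout minus wildtype, were above 0 for 6 and below 0 for 4 of the 10, and ran from -0.39 to 0.58. Their median was 0.091, against 0.00031 over all tested probe sets, of which 50.1% were above 0.

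The 3 neurofilament genes are given in turn, and no test compared them with each other. Nefl, the light chain on which the other chains assemble, had scaled signals of 2823, 2691 and 2699 on knockout arrays 1 to 3, against 2532, 2259 and 2075 on the wildtype arrays. All 3 knockout arrays lay above all 3 wildtype arrays, and the knockout values lay closer together than the wildtype ones. The means were 2738 ± 73.6 in knockout and 2289 ± 230 in wildtype retinae (SD, n = 3 each), a ratio of 1.20, giving a log2 fold change of 0.26 ± 0.12 (SE; adjusted p = 0.999 in limma).

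Nefh, the heavy chain, had the largest log2 fold change of the 10 probe sets. Its scaled signals were 349, 315 and 459 on knockout arrays 1 to 3, against 284, 226 and 220 on the wildtype arrays. The groups did not overlap, and knockout array 3 was the highest of the 6. The means were 374 ± 75.1 in knockout and 243 ± 35.5 in wildtype retinae (SD, n = 3 each), a ratio of 1.54. On the log2 scale with the pseudocount added, the fold change was 0.58 ± 0.19 (SE; 95% interval 0.15 to 1.01; adjusted p = 0.999 in limma). Its unadjusted p ranked 108th of the 13575 probe sets tested, and 4.03% of these probe sets had a fold change at least as far from 0.

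Nefm, the medium chain, is the neighbour of Nefl among protein-coding genes in the RefSeq table, and gave nearly equal group means. Its scaled signals were 615, 854 and 837 on knockout arrays 1 to 3, against 647, 781 and 908 on the wildtype arrays. The groups overlapped fully, with array 1 the lowest in each group. The log2 fold change was -0.020 ± 0.19 (SE; 95% interval -0.44 to 0.40; limma adjusted p = 0.999).

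**Figure D1:**
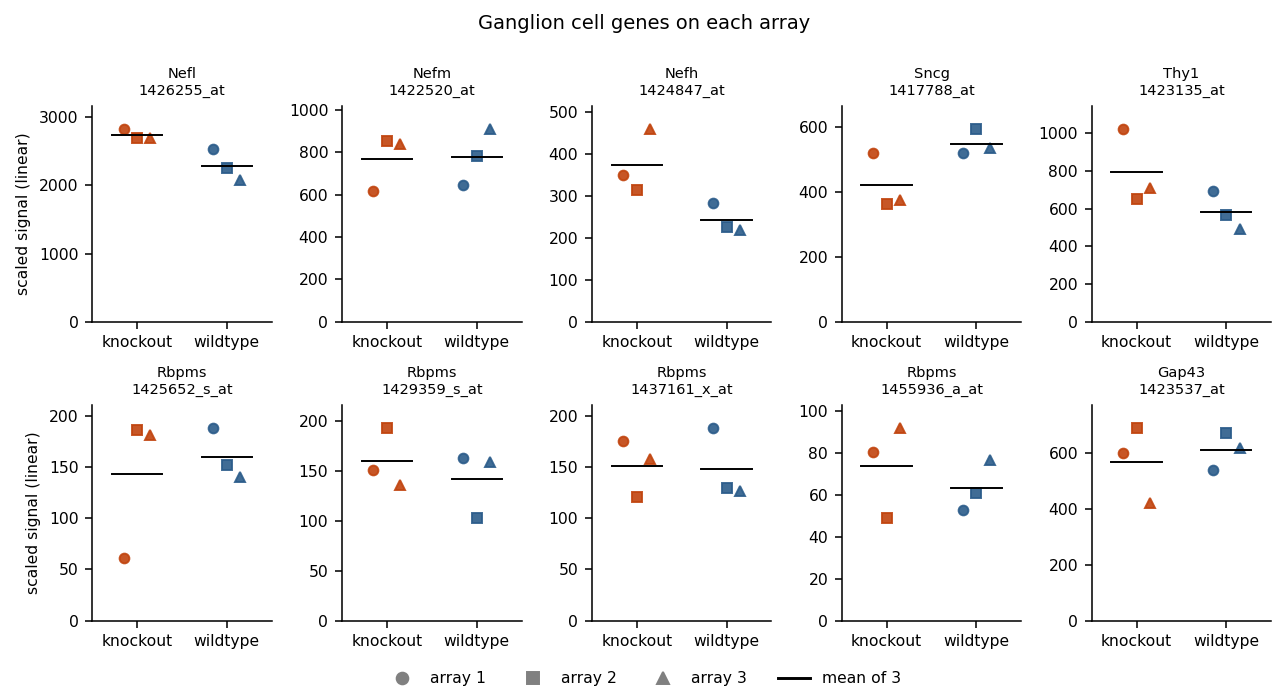
Scaled signal (linear, vertical axis) of each ganglion cell probe set on the 3 knockout and 3 wildtype arrays, with a marker per array and a line at the mean of 3. The groups do not overlap for Nefl and Nefh and overlap for the other 8 probe sets, and knockout array 1 is far below the rest for Rbpms 1425652_s_at.

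Groups that did not overlap were thus found for 2 of the 10 probe sets, Nefl and Nefh, where 9.1% of all tested probe sets had such groups. A fold change of at least 1.5-fold on the log2 scale was reached by 0 of the 10, against 3.79% of all tested probe sets, and 1.61% of these combined it with separate groups. Nefh lay just below that fold limit and passed it with a smaller pseudocount or with median scaling. With median scaling its log2 fold change was 0.67, and the median over all tested probe sets was 0.088.

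Of the axonal proteins, Sncg had the lowest log2 fold change of the 10 probe sets. It encodes gamma-synuclein, a small protein abundant in ganglion cell bodies and axons. Its scaled signals were 519, 363 and 375 on knockout arrays 1 to 3, against 518, 592 and 534 on the wildtype arrays. Knockout arrays 2 and 3 lay below every wildtype array, while knockout array 1 lay beside the lowest wildtype array. The means were 419 ± 87.0 in knockout and 548 ± 38.7 in wildtype retinae (SD, n = 3 each), and the log2 fold change was -0.39 ± 0.18 (SE; 95% interval -0.79 to 0.011; adjusted p = 0.999). Without knockout array 1 it was -0.55 and the groups no longer overlapped, as they did not for 18.5% of all tested probe sets on those 5 arrays.

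Gap43, a membrane protein of growing axons, had scaled signals of 599, 689 and 421 on knockout arrays 1 to 3, against 542, 673 and 619 on the wildtype arrays. Knockout array 3 was the lowest and knockout array 2 the highest of the 6, so the wildtype values lay within the knockout range. The log2 fold change was -0.12 ± 0.20 (SE; 95% interval -0.57 to 0.33; limma adjusted p = 0.999), and it was 0.076 without knockout array 3.

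Thy1 encodes a surface glycoprotein of ganglion cells that is also found on T cells and fibroblasts. Its scaled signals were 1021, 651 and 709 on knockout arrays 1 to 3, against 696, 566 and 493 on the wildtype arrays. Knockout array 1 was the highest of the 6, and knockout array 2 lay below wildtype array 1, so the groups overlapped. The means were 794 ± 199 in knockout and 585 ± 103 in wildtype retinae (SD, n = 3 each), and the log2 fold change was 0.42 ± 0.21 (SE; 95% interval -0.046 to 0.88; limma adjusted p = 0.999). Without knockout array 1 it was 0.22, so that array set much of its size. Of 10 T cell and fibroblast markers measured, 2 lay above the filter on low values. The summed signal of the 10 was 293, 307 and 446 on knockout arrays 1 to 3 and 325, 365 and 904 on the wildtype arrays. The 5 leucocyte genes of that list, Cd3d, Cd3e, Cd3g, Cd2 and Ptprc, all lay below the filter, the brightest of them being Cd3e with 13.9, 61.1 and 40.6 on the knockout arrays and 61.7, 93.2 and 43.0 on the wildtype arrays. The 2 genes above the filter were the collagen genes Col1a2 and Col3a1. The part of these cells in the Thy1 signal was not tested.

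Rbpms encodes an RNA-binding protein found in nearly all ganglion cells and, outside the retina, in smooth muscle. Its 4 probe sets, whose identifiers end in _s_at, _x_at or _a_at and which can hybridise with related transcripts, had log2 fold changes from -0.26 to 0.17. The probe set 1425652_s_at had scaled signals of 61.2, 187 and 181 on knockout arrays 1 to 3, against 188, 152 and 140 on the wildtype arrays. Knockout array 1 was thus far below the other 5 arrays, and the log2 fold change of -0.26 ± 0.34 (SE; limma adjusted p = 0.999) was 0.19 without it.

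The probe set 1429359_s_at had 151, 192 and 136 on the knockout arrays and 163, 103 and 158 on the wildtype arrays (log2 fold change 0.17 ± 0.22, SE). The probe set 1437161_x_at had 175, 121 and 158 on the knockout arrays and 188, 130 and 127 on the wildtype arrays (log2 fold change 0.033 ± 0.21, SE). The probe set 1455936_a_at had 80.1, 48.9 and 91.6 on the knockout arrays and 52.5, 60.7 and 76.7 on the wildtype arrays (log2 fold change 0.15 ± 0.24, SE). In these 3 probe sets knockout array 1 lay among the other arrays, and the groups overlapped. Of 7 smooth muscle and mural cell markers measured, 3 lay above the filter, and their summed signal was 1127 to 1344 on the knockout arrays and 966 to 1060 on the wildtype arrays, without overlap. The pericyte gene Rgs5 made up most of that sum, with 881 to 930 on the knockout arrays and 702 to 755 on the wildtype arrays. The smooth muscle gene Acta2 had 254, 141 and 111 on the knockout arrays and 185, 158 and 139 on the wildtype arrays, while Myh11, also of smooth muscle, was at most 4.19 on the knockout arrays and 5.72 on the wildtype arrays. The part of these cells in the Rbpms signal was not tested.

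**Figure D2:**
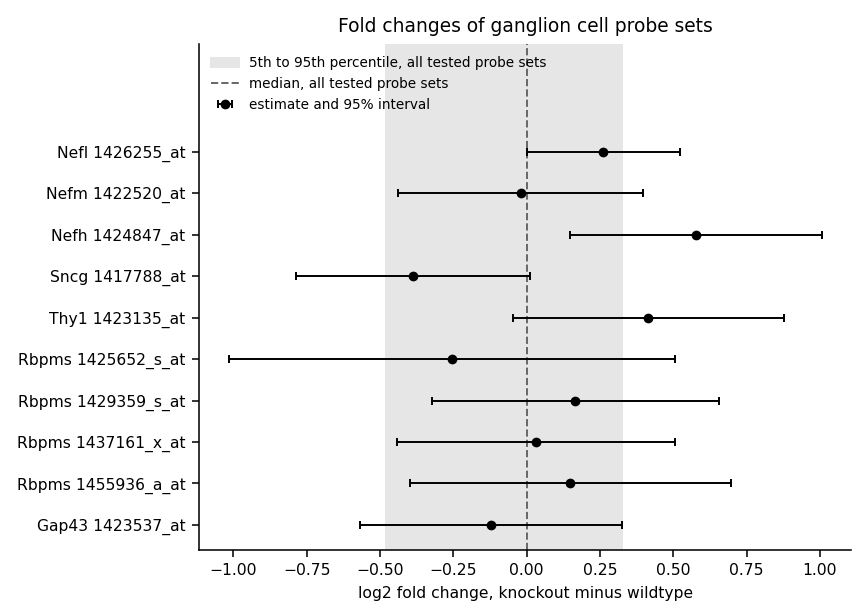
Log2 fold change (knockout minus wildtype, horizontal axis) of each ganglion cell probe set with its 95% interval from limma, beside the 5th to 95th percentile of all 13575 tested probe sets (-0.48 to 0.33, grey band) and their median (dashed line). The interval holds 0 for 9 of the 10 probe sets, all but that of Nefh.

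The intervals show what size of difference these 6 arrays leave possible. The 95% interval held 0 for 9 of the 10 probe sets. Nefl was the most precise, with an interval of 1.00 to 1.44 for the ratio of knockout over wildtype, and Nefm and Gap43 had intervals of 0.74 to 1.32 and 0.67 to 1.25. Rbpms 1425652_s_at was the least precise, with an interval of 0.49 to 1.42. The standard errors of the 10 probe sets lay between 0.12 and 0.34, against a median of 0.20 over all tested probe sets. A missed threshold in this design does not show that ganglion cell genes were equal in both groups.

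When 1 array was left out in turn, the log2 fold changes of Nefl (0.19 to 0.34), Nefh (0.43 to 0.69), Thy1 (0.22 to 0.54) and Sncg (-0.55 to -0.30) kept their sign, as did that of Rbpms 1455936_a_at (0.0054 to 0.36). The other 5 probe sets took both signs. The value for Sncg was -0.083 on the signals as deposited, without rescaling, where the median over all tested probe sets was 0.29. With each array left out no ganglion cell probe set passed in limma, and the lowest adjusted p was 0.58, for Nefh without knockout array 2. The number of the 10 with an unadjusted limma p under 0.05 ran from 0 without knockout array 3, on which Nefh was highest (4.67% of all tested probe sets), to 3 without wildtype array 1 (Nefl, Nefh and Thy1; 3.27% of all).

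**Figure D3:**
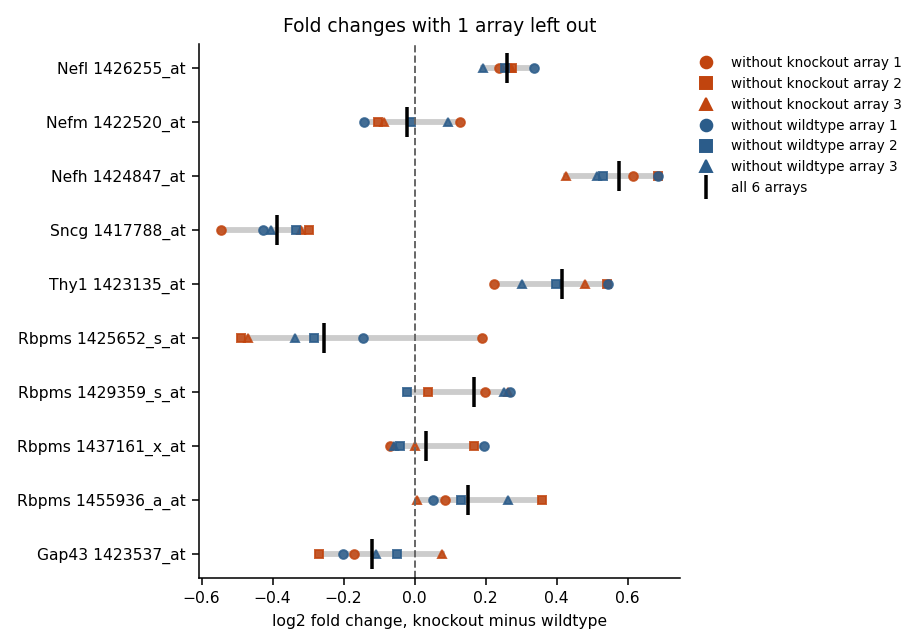
Log2 fold change (knockout minus wildtype, horizontal axis) of each ganglion cell probe set with all 6 arrays (black bar) and with 1 array left out (6 markers per row). Nefl, Nefh and Thy1 stay above 0 and Sncg below 0, and Rbpms 1425652_s_at is above 0 in 1 of the 6 cases, without knockout array 1.

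The profiles of the 7 genes across the arrays differed. Taking the brightest probe set of each of the 7 genes and its deviation from its own mean over the 6 arrays, the mean deviation was -0.027, 0.069 and 0.059 on knockout arrays 1 to 3 and 0.018, -0.023 and -0.095 on the wildtype arrays (log2 scale). The SD over the 7 genes was 0.51 on knockout array 1 and 0.19 to 0.35 on the other 5. The width on knockout array 1 came from Rbpms 1425652_s_at, brightest by a small margin, at -1.02, where Thy1 stood at 0.59. Over the other 6 genes the SD on that array was 0.29, inside the 0.13 to 0.37 of the other arrays, and the mean deviation there was 0.14. On knockout array 3, Nefh stood at 0.59 and Gap43 at -0.45. Among 12530 named probe sets of other genes, those most like the mean deviation over the 6 arrays were of Git2 (Pearson r = 0.99), Dag1 (0.98), Ap3s1 (0.98), Wdr82 (0.97) and Sytl2 (0.97). This is a description over 6 arrays of a mean that itself varied by 0.16 between the highest and lowest array, and whose value on knockout array 1 depends on that Rbpms probe set.

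Other genes of ganglion cells and axons were read from 3 lists, which held 56 genes, of which 46 had a probe set in the annotation and 38 had one above the filter. Over the 3 lists 0 genes were called higher and 0 lower in the knockout (limma with Benjamini-Hochberg adjustment over all tested probe sets, 0.0147% called). At an unadjusted limma p under 0.05 there was 1 gene, beside 3.82% of all tested probe sets. Groups did not overlap for 4 of the 38, beside 9.1% of all tested probe sets. These were Kif5a, lower in the knockout, and Ebf3, Map1b and Tubb2a, higher in it, each by its brightest tested probe set. A dimmer tested probe set of Ebf3, 1460666_a_at, was lower in the knockout without overlap, at a log2 fold change of -0.42. So was Map1b 1421850_at, at -0.98. The brightest tested probe set of each gene had a log2 fold change above 0 for 21 and below 0 for 17, with a median of 0.035.

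Of 9 tested regulators of ganglion cells, 5 were above and 4 below 0, with a median log2 fold change of 0.13. Isl1, a LIM-homeodomain partner of Pou4f2, had a scaled signal of 1961 ± 202 in knockout and 1956 ± 96.1 in wildtype retinae (SD, n = 3 each), and its log2 fold change was -0.00012, with a 95% interval of -0.28 to 0.28. Its other tested probe set had 0.21. The helix-loop-helix factor genes Ebf3 and Ebf1 had 0.34 and 0.22, the homeobox gene Irx3 had 0.24, and the chromatin organiser gene Satb1 had -0.20. The other tested probe sets of Ebf3 had -0.067 and -0.42 and those of Satb1 had 0.25 and 0.11.

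Of 19 tested genes of the axonal cytoskeleton and axon growth, 7 were above and 12 below 0, with a median of -0.026. Ina and Prph, which encode the other neuronal intermediate filament proteins alpha-internexin and peripherin, had log2 fold changes of 0.12 and -0.18, and the other tested probe sets of Ina had 0.29 and -0.098. Kif5a, a motor of axonal transport that carries neurofilaments, had scaled signals of 66.3, 87.0 and 74.8 on knockout arrays 1 to 3, against 118, 194 and 119 on the wildtype arrays. The highest knockout value lay below the lowest wildtype value, and the log2 fold change was -0.75 ± 0.22 (SE; 95% interval -1.25 to -0.25; adjusted p = 0.999 in limma); this was the gene with an unadjusted p under 0.05. Its other probe set lay below the filter, with a mean signal of 3.95. The microtubule regulator Stmn2 had -0.28. The tubulin gene Tubb2a and the microtubule-associated protein gene Map1b had 0.20 and 0.27, also with groups that did not overlap. The other tested probe sets of Map1b had -0.98, likewise without overlap, and -0.80.

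Of 10 tested genes of transporters, receptors, synucleins and RNA-binding proteins, 9 were above and 1 below 0, with a median of 0.11. Sncb, which encodes beta-synuclein, had scaled signals of 1332, 1108 and 1329 on knockout arrays 1 to 3, against 1236, 859 and 732 on the wildtype arrays. Wildtype array 1 lay above knockout array 2, so the groups overlapped, with a log2 fold change of 0.44 ± 0.20 (SE; adjusted p = 0.999 in limma). The value for Sncb was thus positive where that for Sncg was negative, and neither passed the test. The nicotinic receptor subunit genes Chrna6 and Chrnb3 had 0.23 and 0.19, and Slc17a6, the vesicular glutamate transporter of ganglion cells, had 0.16. Opn4, the melanopsin gene of light-sensitive ganglion cells, had a scaled signal of 93.1 ± 3.03 in knockout and 108 ± 31.7 in wildtype retinae (SD, n = 3 each). Of the 12 genes named by rule from the 3 lists, 0 turned sign with 1 array left out, but 9 moved by over 1.5 times. The rule took the largest moderated statistics, so that count of 0 is partly set by the choice. The remaining genes of the lists were not followed in this way. Slc17a6 was 0.0072 and Ebf1 0.083 without wildtype array 2, and Tubb2a was 0.13 without wildtype array 1. Irx3 was 0.095 without knockout array 2, Stmn2 -0.12 without knockout array 1, and Map1b 0.17 without knockout array 3. Without wildtype array 3, Sncb was 0.28, Chrnb3 0.098 and Satb1 -0.10.

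**Figure D4:**
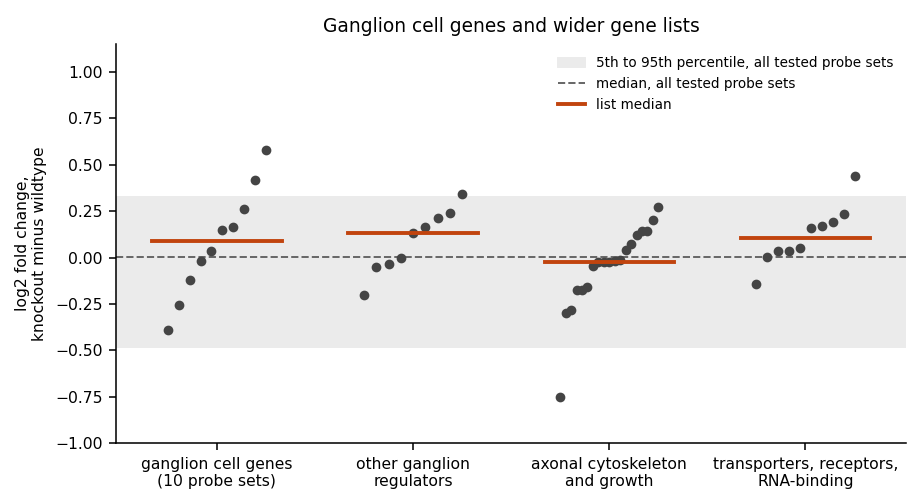
Log2 fold change (knockout minus wildtype, vertical axis) of the 10 ganglion cell probe sets and of the brightest tested probe set of each gene in the 3 wider lists (9, 19 and 10 genes), with each list's median, beside the 5th to 95th percentile of all tested probe sets (grey band). The list medians run from -0.026 to 0.13, and Kif5a is the lowest point at -0.75.

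Several of these genes had probe sets that disagreed, as did Rbpms. The 4 genes described here were chosen after their values were seen. Chrna6 probe set 1450426_at had 53.1, 182 and 99.4 on knockout arrays 1 to 3, against 161, 220 and 206 on the wildtype arrays, a log2 fold change of -0.83, where the brighter probe set had 0.23. Slc17a6 probe set 1418610_at had 70.4, 176 and 153 on the knockout arrays, against 194, 176 and 211 on the wildtype arrays, a log2 fold change of -0.56, where the brighter probe set had 0.16. In each of these pairs knockout array 1 was the lowest of the 6 in the dimmer probe set, while it lay within the range of the other arrays in the brighter one.

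Map1b probe set 1421851_at had 78.9, 570 and 562 on the knockout arrays, against 477, 547 and 618 on the wildtype arrays. Its log2 fold change of -0.80 was 0.055 without knockout array 1. The probe set 1421850_at had 18.8, 56.2 and 100 on the knockout arrays, against 107, 131 and 119 on the wildtype arrays, and its log2 fold change of -0.98 was -0.54 without that array. Map1b probe set 1450397_at, in contrast, had 672, 678 and 835 on the knockout arrays and 553, 575 and 667 on the wildtype arrays. The fold changes of the 3 Map1b probe sets lay up to 1.25 apart on the log2 scale with all arrays, and up to 0.87 apart without knockout array 1. Of 22 genes of the 4 lists with at least 2 tested probe sets, 8 (36.4%) had fold changes at least 1.5-fold apart between probe sets, against 17.5% of 2935 genes over the whole table. The numbers were 6 of 22 and 15.4% without wildtype array 2, and 8 to 10 of 22 and 21.7% to 27.0% without another single array, besides knockout array 1. They were 7 of 22 and 9.3% without knockout array 1. Without that array the gap grew for Sox4 (1.17 to 1.52 on the log2 scale) and Mapt (0.84 to 0.92). It shrank for the rest of the 8. Klc1 had the widest gap, 1.32, or 0.80 without that array. Sox4 1419157_at and Mapt 1417885_at were lowest on knockout array 3, at 14.8 and 146, and highest on wildtype array 2, at 737 and 532. These genes, too, were named after their values were seen. The Actb 3' to 5' ratio was highest on knockout array 1, at 2.17, and its part in these differences was not tested. The genes in these counts differ in their number of probe sets, and a gene with more of them has more chances of a pair that disagrees.

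**Figure D5:**
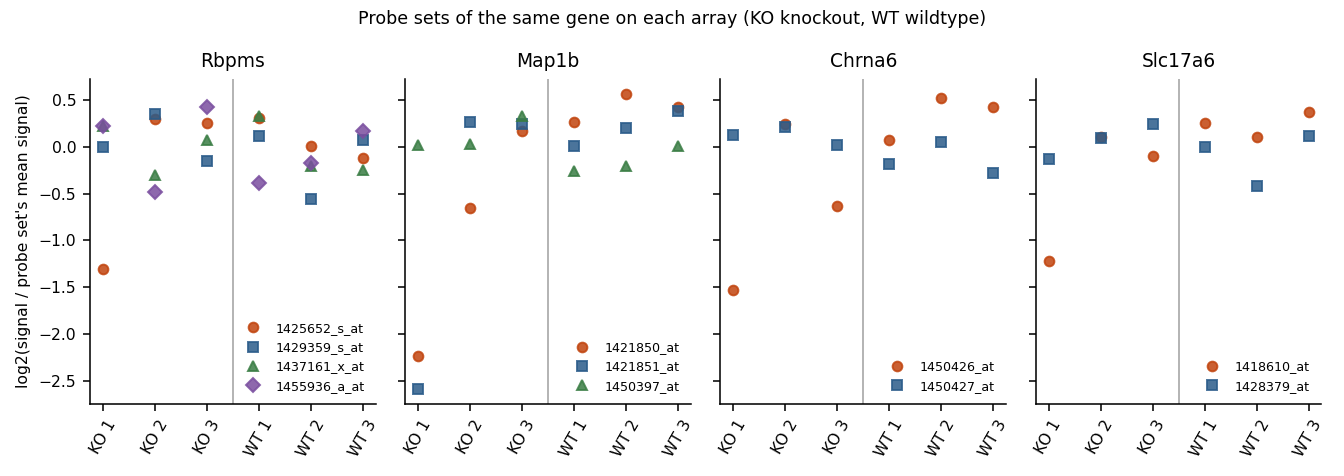
Signal of each tested probe set of Rbpms, Map1b, Chrna6 and Slc17a6 on each array, as log2 of the signal over that probe set's mean (vertical axis), with the knockout arrays (KO) left of the wildtype arrays (WT). On KO 1 the points of one gene part by more than on any other array, for each gene shown. For Map1b, 1421851_at had 78.9 there and 1450397_at had 672.

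Markers of other cells that a retinal preparation can hold varied between arrays. Summed scaled signals of 11 amacrine cell markers, all above the filter, were 6117 to 6578 on the knockout arrays and 6197 to 6682 on the wildtype arrays. These amacrine ranges overlapped, and in RNA of whole retinae such a sum is not that of a single layer. Summed signals of 10 rod markers, all above the filter, were 24480 to 29093 on the knockout arrays and 28895 to 30812 on the wildtype arrays, lowest on knockout array 1. Those of 10 astrocyte and optic nerve glia markers, 6 of them above the filter, were 1143 to 1431 on the knockout arrays and 926 to 1337 on the wildtype arrays. The myelin gene Mbp had 318, 249 and 371 on the knockout arrays and 327, 226 and 255 on the wildtype arrays, and the myelin gene Mog lay below the filter on every array. These glial ranges overlapped. Lens crystallins and related genes, 7 of 14 above the filter, summed to 722, 370 and 1301 on knockout arrays 1 to 3. On wildtype arrays 1 to 3 they summed to 249, 276 and 2212. Pigment epithelium markers, 6 of 7 above the filter, summed to 3737 to 4453 on the knockout arrays and 2306 to 4255 on the wildtype arrays. Both ranges overlapped, as did those of 6 blood markers, 1 of them above the filter (116 to 173 on the knockout arrays and 122 to 152 on the wildtype arrays). Skeletal muscle markers, 4 of 11 above the filter, summed to 434, 382 and 391 on knockout arrays 1 to 3 and 529, 547 and 755 on the wildtype arrays. These sums did not overlap, but the groups of each of the 4 genes above the filter, Acta1, Ckm, Des and Casq1, did. For such sums no share over the whole table was taken. Wildtype array 3 had the highest sums of the lens, skeletal muscle, and T cell and fibroblast lists. It was also the lowest of the 6 arrays for Nefl, Nefh and Thy1. Without it their log2 fold changes were 0.19, 0.51 and 0.30, while Nefh had 0.43 without knockout array 3. For Nefm, wildtype array 3 was the highest of the 6, at 908. For Sncg (534), Gap43 (619) and each Rbpms probe set it was neither the highest nor the lowest. The part of these cells in the values of the ganglion cell genes was not tested.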

How the data were processed

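The values are linear probe set intensity values of 6 arrays, deposited by the authors, who used MAS5 according to the submitters' processing notes. Its version, scaling target and detection calls are not given in the sources used here. Groups and replicate numbers were taken from the labels. Without the 64 control probe sets, arrays were brought to a common mean (2% trimmed at each end). The log2 transform followed the addition of 19.1, a pseudocount set at the 20th percentile of scaled signals, which makes fold changes of dim probe sets too small. The test covered the 13575 probe sets whose mean scaled signal exceeded 62.4, the 40th percentile. The difference, knockout minus wildtype, came from lmFit and eBayes (trend on intensity) in limma 3.58.1 under R 4.3.3, and p-values were adjusted by Benjamini-Hochberg over all of them. The fit was tested on simulated data.

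Names are those of the platform annotation, brought up to date by Entrez identifier where RefSeq's GRCm38.p6 table held it (20351 probe sets). A single symbol was found for 20380 probe sets, several for 691, which were not named, and none for 1555. Retinoschisin's own signal is not reported here. Probe sets named in the text are all those of the members, up to 4 genes per wider list ranked by moderated statistic, the 5 most like the members' mean, and genes said to be chosen after their values were seen, besides Isl1, Ina, Prph and Opn4, also chosen then. The members, lists and tests were chosen with earlier results of these data known. Alternatives were other scalings, pseudocounts and filters, other variance models, weighted arrays, a block for the replicate number, and fits with arrays left out. No batch labels were given. With 6 arrays, their number sets the precision.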

Additional observations from a re-analysis of the deposited data

How the results depend on the processing

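The number of ganglion cell probe sets that passed was 0 under all 18 alternatives run, and Nefl, Nefh, Thy1 and Sncg kept their sign in each. The stricter filter tested 6 of the 10. Over the whole table, limma's count of calls (2) was 10 without rescaling, 1 without a filter, 4 without wildtype array 2 and knockout array 1 together, and between 0 (wildtype array 3 omitted) and 4 (wildtype array 2 omitted) with 1 array left out, with 1 when knockout array 2 or 3 was omitted. With the ordinary per-probe-set statistic it was 0, with 492 at an unadjusted p under 0.05. The count of ganglion cell probe sets at least 1.5-fold apart without overlap (0) was 1 with median scaling, 1 with the lower pseudocount and 1 with array weights, each Nefh, 2 without rescaling (Nefh and Thy1), and 0 to 1 with 1 array left out. Their median log2 fold change (0.091) was 0.35 without rescaling, where that of all tested probe sets was 0.29, and ranged from -0.016 (without wildtype array 2) to 0.16 with 1 array left out. Signs of values that did not pass turned as follows. Nefm was 0.072 with median scaling, where the median of all tested probe sets was 0.088. Its value was 0.29 without rescaling, 0.14 with array weights, 0.14 without wildtype array 2 and knockout array 1 together, and -0.14 to 0.13 with 1 array left out. Rbpms 1425652_s_at was 0.015 without rescaling, 0.0028 with array weights, 0.16 without those 2 arrays, and -0.49 to 0.19 with 1 left out. Rbpms 1437161_x_at was -0.060 with array weights, -0.14 without those 2 arrays, and -0.068 to 0.20 with 1 left out, and Rbpms 1429359_s_at was -0.021 to 0.27 with 1 left out. Without rescaling Gap43 was 0.19, Satb1 0.096 and Stmn2 0.035, and Gap43 was -0.27 to 0.076 with 1 array left out. For none of these was the cause tested. A replicate block in the fit gave 0 ganglion cell probe sets and 2 over the whole table, and Nefh had an adjusted p of 0.73 in limma. The correlation between deviations of arrays with 1 number was 0.18, -0.029 and 0.084, and knockout array 2 correlated best with wildtype array 3, at 0.26, so the numbers are not known to pair the arrays. The spread without Rbpms (0.29, against 0.51 with it, on knockout array 1) and the comparison of probe sets of 1 gene were added after the data were seen. The count of 8 genes was 6 to 10 with 1 array left out.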
